A study of Arabidopsis thaliana with 4 samples.

Results

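Beta-tubulin is one of the paired proteins from which microtubules are built, and the 5 genes described here, TUB1, TUB5, TUB6, TUB7 and TUB9, encode 5 of its forms in Arabidopsis thaliana. They are the beta-tubulin genes for which the platform annotation gives a probe set with exactly 1 gene, out of 13356 genes with such a probe set. Each has 1 probe set. RefSeq names 9 genes of the family, and TUB2, TUB3, TUB4 and TUB8 are not analysed here. The genes were chosen by annotation, with the log2 differences between GSH and control arrays already in view, so their own differences between the groups are given as a description and without a test.

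Alpha- and beta-tubulin join into dimers that add end to end and side by side into the hollow wall of the microtubule. In growing plant cells, microtubules under the plasma membrane guide the placing of cellulose, and in dividing cells they form the spindle and the phragmoplast that lays down the new cell wall. Plants carry several genes for each tubulin, and members of the family differ in the organs and conditions in which they are expressed.

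The study measured whole seedlings of ecotype Columbia, aged 15 days, with 4 one-colour Affymetrix arrays, 2 of control seedlings and 2 of seedlings treated with GSH (reduced glutathione, the main small thiol of plant cells) for 72 hours. The groups share ecotype, tissue and stated age. The sources used here give no GSH dose. They also do not state how old the controls were at harvest, so the groups may differ in age by the treatment time. Titles call the replicates biological without naming separate cultures, and p-values therefore measure the spread between these arrays, which may be technical.

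Values are log2 expression values made by the authors with RMA, which gives the 4 arrays nearly the same distribution (array medians 5.33 to 5.37 over the 22746 probe sets of genes). Differences are GSH minus control in log2 units, and each error is limma's moderated standard error (SE) over n = 2 arrays a group. The leaf markers RCA and LHCB4.2 lay between 10.45 and 10.93 on the 4 arrays. The root markers PYK10, EXPA7 and EXPA18 lay between 3.85 and 4.38, close to 4.06, the mean value under which the lowest 25% of probe sets fall. Root RNA was therefore not evident from these markers, although the label is whole seedlings. Control probe sets moved with the groups as well. The signal for 25S ribosomal RNA differed by -2.97, and 27 probe sets for spiked-in Bacillus RNA had a median difference of -0.26, with a range from -0.87 to 0.13. The control probe sets for Arabidopsis GAPDH and ubiquitin, 5 of each, moved the other way, with median differences of 0.29 and 0.11. Their differences ran from 0.16 to 0.35 for GAPDH and from 0.05 to 0.13 for ubiquitin. The part of these shifts in the differences below was not tested.

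All 5 beta-tubulin genes had lower mean values in GSH-treated seedlings, by widely different amounts. TUB5 and TUB6 lay almost 3-fold lower, TUB1 and TUB7 lay less than 2-fold lower, and TUB9 was nearly level. The median difference of the 5 genes was -0.74, against -0.01 over all 22746 probe sets.

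TUB6, a family member known to be less expressed in the cold, gave 10.42 and 10.45 on the control arrays and 8.98 and 8.87 on the GSH arrays. Both GSH arrays stood well apart from both control arrays, with a gap of 1.45 between the nearest pair, while the replicates of a group differed by at most 0.11. The difference was -1.51 ± 0.07 (SE, n = 2 per group), 2.85-fold lower. Its values were bright in both groups, the GSH mean lying 4.86 log2 units above the limit of the lowest 25%.

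TUB5 gave 5.99 and 6.02 on the control arrays and 4.74 and 4.18 on the GSH arrays. The groups did not overlap, and the GSH replicates differed from each other by 0.56, the widest replicate spread among the 5 genes. The difference was -1.54 ± 0.17 (SE, n = 2 per group), 2.92-fold lower. Its GSH mean lay 0.40 above the limit of the lowest 25%, and no detection calls were used, so the GSH level was not shown to be above background and the size of the difference is uncertain. Without GSH replicate 2 the difference was -1.26, and without GSH replicate 1 it was -1.83.

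TUB1, known as a gene repressed by light, gave 5.03 and 5.24 on the control arrays and 4.46 and 4.34 on the GSH arrays. Both GSH arrays were below both control arrays, by 0.57 at the nearest pair. The difference was -0.74 ± 0.09 (SE, n = 2 per group), 1.67-fold lower. This probe set was dim in both groups, with the control mean 1.07 and the GSH mean 0.34 above the same limit, and compression of dim values by RMA can make a difference look smaller than it was.

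TUB7 gave 8.91 and 8.80 on the control arrays and 8.39 and 8.45 on the GSH arrays. The GSH arrays were again the lower ones, with a gap of 0.35 that exceeded the widest replicate spread of 0.11. The difference was -0.44 ± 0.08 (SE, n = 2 per group), 1.36-fold lower.

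TUB9, known for its expression in pollen, gave 8.87 and 8.77 on the control arrays and 8.68 and 8.76 on the GSH arrays. The higher GSH array came within 0.003 of the lower control array, so the groups met almost exactly. The difference was -0.10 ± 0.08 (SE, n = 2 per group), close to the size of its error. The pollen markers ANX1, ANX2 and ACT12, the 3 measured of 5 listed, had means below 4.06, the limit of the lowest 25%. Their values ran from 3.62 to 4.08 with no member past the threshold (limma with Benjamini-Hochberg adjustment, adjusted p from 0.404 to 0.934). At such dim values this list gives no measure of pollen.

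**Figure D1:**
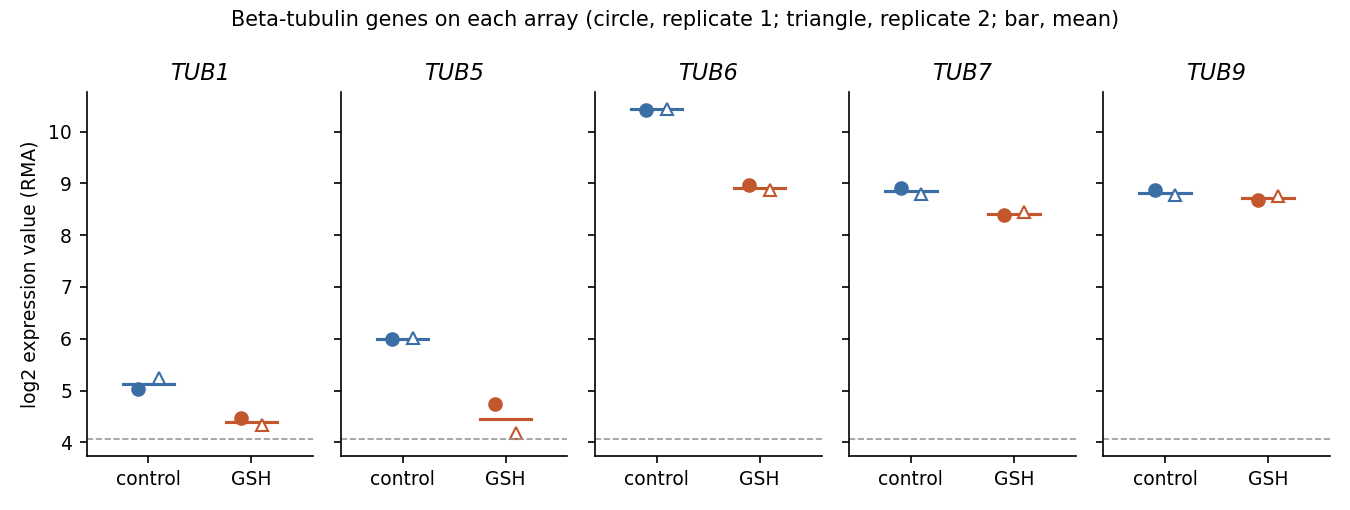
Log2 expression value of each beta-tubulin gene on each array, control in blue and GSH in orange, with circles for replicate 1, triangles for replicate 2, bars for group means and a dashed line at 4.06, the limit of the lowest 25% of probe sets. TUB6 lies at means of 10.43 and 8.92 with tight replicates, TUB1 and TUB5 come close to the dashed line after GSH, and the TUB9 groups nearly touch. Levels can be compared within a panel but not between panels, because each probe set responds differently.

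The amounts place the 5 genes in an order, in which the place of TUB1 is uncertain because its values were dim in both groups. The differences of TUB5 and TUB6 between the groups were 0.03 ± 0.18 log2 units apart. That of TUB5 is uncertain because its GSH level was dim, so the gap between the 2 differences is not settled. TUB6 and TUB7, both bright, were 1.07 ± 0.11 apart, and TUB6 and TUB9 were 1.42 ± 0.11 apart. TUB1 and TUB7, next to each other in the order, were 0.30 ± 0.12 apart, and TUB7 and TUB9 were 0.34 ± 0.11 apart. The error of each gap combines the SEs of its genes as if independent, although all genes share the same arrays. The gap between TUB1 and TUB7 depended on the array left out. Without control replicate 1 the differences of TUB1 and TUB7 were -0.84 and -0.39, and without control replicate 2 they were -0.63 and -0.49. All gaps given here are descriptions, since the same contrast brought the genes forward.

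The groups did not overlap and were lower for 5 of 5 genes, including TUB9 by the small margin given, where 34.0% of all probe sets were placed so. At least 2-fold lower without overlap were 2 of 5, TUB5 and TUB6, against 1.69% of all probe sets. Nothing is read from these counts, because the comparison is the one in which the genes were seen. Differences as low as those of TUB5 and TUB6 or lower were found for 0.484% and 0.497% of probe sets, as low as that of TUB1 for 3.83%, as low as that of TUB7 for 9.77% and as low as that of TUB9 for 34.3%.

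**Figure D2:**
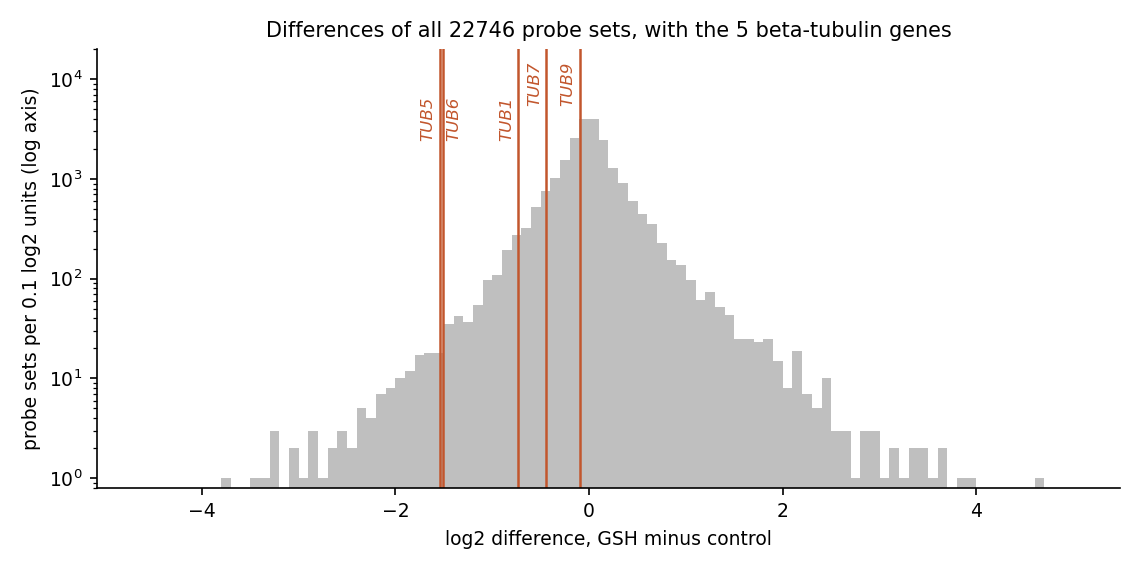
Histogram of the log2 difference (GSH minus control) of all 22746 probe sets, with the count per bin on a log axis and orange lines at the 5 beta-tubulin genes. TUB5 (-1.54) and TUB6 (-1.51) stand in the lower tail, and TUB9 (-0.10) stands in the centre.

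Seedlings were measured as bulk tissue, in which fewer cells of a type and less of a transcript per cell cannot be told apart. The dividing-cell list had 1 measured member of 6, PRL (MCM7, a subunit of the replicative helicase). Its mean lay within the lowest 25% of probe sets, so this list gives no measure of dividing cells. The leaf markers LHCB4.2 and RCA fell by 0.42 ± 0.07 and 0.24 ± 0.07 (limma adjusted p = 0.00389 and 0.0355), amounts below those of TUB1, TUB5 and TUB6, with that of LHCB4.2 near that of TUB7. RCA lost its call without any 1 of the 4 arrays, with limma adjusted p from 0.0884 to 0.139. In such fits 1 group has a single array, which is assumed to vary like the arrays of the other group. The guard cell marker FMA (FAMA) stood at -0.20 ± 0.08 and did not pass (limma adjusted p = 0.121). The part of a shift in tissue in the beta-tubulin differences was not tested.

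Alpha-tubulin, the partner of beta-tubulin in the dimer, moved in both directions. The list holds 6 genes, of which 2 were measured and both passed, where 33.8% of all probe sets did. This list and those that follow were chosen with earlier results of these data known, so their counts are descriptions. TUA6 gave 10.12 on both control arrays and 10.58 and 10.63 on the GSH arrays, and it rose by 0.49 ± 0.07 (limma adjusted p = 0.00213). TUA1, known for its expression in pollen, gave 10.18 and 10.15 on the control arrays and 9.93 and 9.95 on the GSH arrays, and it fell by 0.22 ± 0.07 (limma adjusted p = 0.0442). The call for TUA1 was lost with arrays centred on their medians (limma adjusted p = 0.0658) and without any 1 of the 4 arrays (0.11 to 0.186), while TUA6 passed in each of these fits, which share the assumption on the single array. Neither alpha-tubulin gene showed a difference of the size found for TUB5 or TUB6.

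New tubulin is folded by prefoldin and the cytosolic chaperonin and then joined into dimers by the tubulin folding cofactors. The list on tubulin folding had 10 of its 21 genes measured, of which 6 were lower, 1 was higher and 3 did not pass, where 17.5% of all probe sets were called lower, 16.2% higher and 33.8% in either direction. Their median was -0.53 against -0.01 over all probe sets. As the list was chosen with earlier results of these data known, its counts and median are descriptions. The folding cofactors PFI and POR, cofactors E and C in RefSeq, were the 2 measured members with a name. POR gave 7.05 and 6.95 on the control arrays and 7.37 and 7.40 on the GSH arrays, and it rose by 0.38 ± 0.07 (limma adjusted p = 0.00763). PFI gave 5.93 and 6.28 against 6.46 and 6.37, a difference of 0.31 ± 0.12 that did not pass (limma adjusted p = 0.0924). The difference of PFI was 0.14 without control replicate 1 and 0.49 without control replicate 2.

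The other 8 measured entries of the folding list were matched by locus code alone. The tables used here give these codes no name, so their place rests on the list itself. Of these 8, 6 fell and 2 did not pass, beside the 17.5% of all probe sets called lower, and their median was -0.67. The largest fall was that of AT5G16070, from 7.63 and 7.50 to 6.64 and 6.69, a difference of -0.89 ± 0.08 (limma adjusted p = 0.000302). AT1G24510 went from 9.87 and 9.84 to 9.00 and 9.06, a difference of -0.82 ± 0.07 (limma adjusted p = 0.000272). AT3G11830, AT5G20890, AT3G18190 and AT5G26360 fell by 0.76, 0.72, 0.62 and 0.45 log2 units, and each of the 6 also passed without any 1 array, under the same assumption on the single array. AT3G03960 (-0.12 ± 0.07) and AT3G02530 (-0.11 ± 0.08) did not pass. POR, PFI and these last codes were named after their values were seen. Both named cofactors had higher mean values after GSH, but only POR passed, while 6 of the 8 codes fell. All 6 entries called lower were among those without a name, which is a split by annotation only.

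Proteins that bind microtubules bundle them, anchor them or set their direction. Of 37 such genes 6 were measured, 3 lower, 1 higher and 2 not past the threshold, beside 33.8% of all probe sets called, with a median of -0.08. MAP65-6 (ATMAP65-6 in RefSeq), of the family of proteins that link neighbouring microtubules, gave 7.65 and 7.58 on the control arrays and 6.15 and 6.28 on the GSH arrays. It fell by 1.40 ± 0.08 (limma adjusted p = 5.8e-05), 2.63-fold lower, a difference close to that of TUB6. AT4G32330, listed by its locus code, fell by 0.82 ± 0.15 (limma adjusted p = 0.00572). SP1L2, a relative of SPR1, fell by 0.27 ± 0.07 (limma adjusted p = 0.0248), and AT1G54460, also listed by its code, rose by 0.26 ± 0.07 (limma adjusted p = 0.0271). The last 2 calls were lost without any 1 of the 4 arrays, with limma adjusted p from 0.0686 to 0.129 for SP1L2 and from 0.0694 to 0.142 for AT1G54460. SPR1, which keeps cell elongation straight, stood at 0.18 ± 0.08 and AT3G23090 (WDL3) at 0.10 ± 0.08, and neither passed.

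The gamma-tubulin complex, from which new microtubules start, had 1 measured gene of 8. AT5G17410, listed by its locus code, gave 4.84 and 4.66 on the control arrays and 4.80 and 4.53 on the GSH arrays, and it did not pass (limma adjusted p = 0.628). None of 9 kinesin genes and none of the 4 other beta-tubulin genes on the lists had a probe set with 1 gene. Over all 6 microtubule lists, 19 of 85 genes were measured, 10 lower, 3 higher and 6 not past the threshold. In all 13 were called, where 33.8% of all probe sets were called. Nothing is read from these counts, because the lists were chosen with earlier results of these data known.

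**Figure D3:**
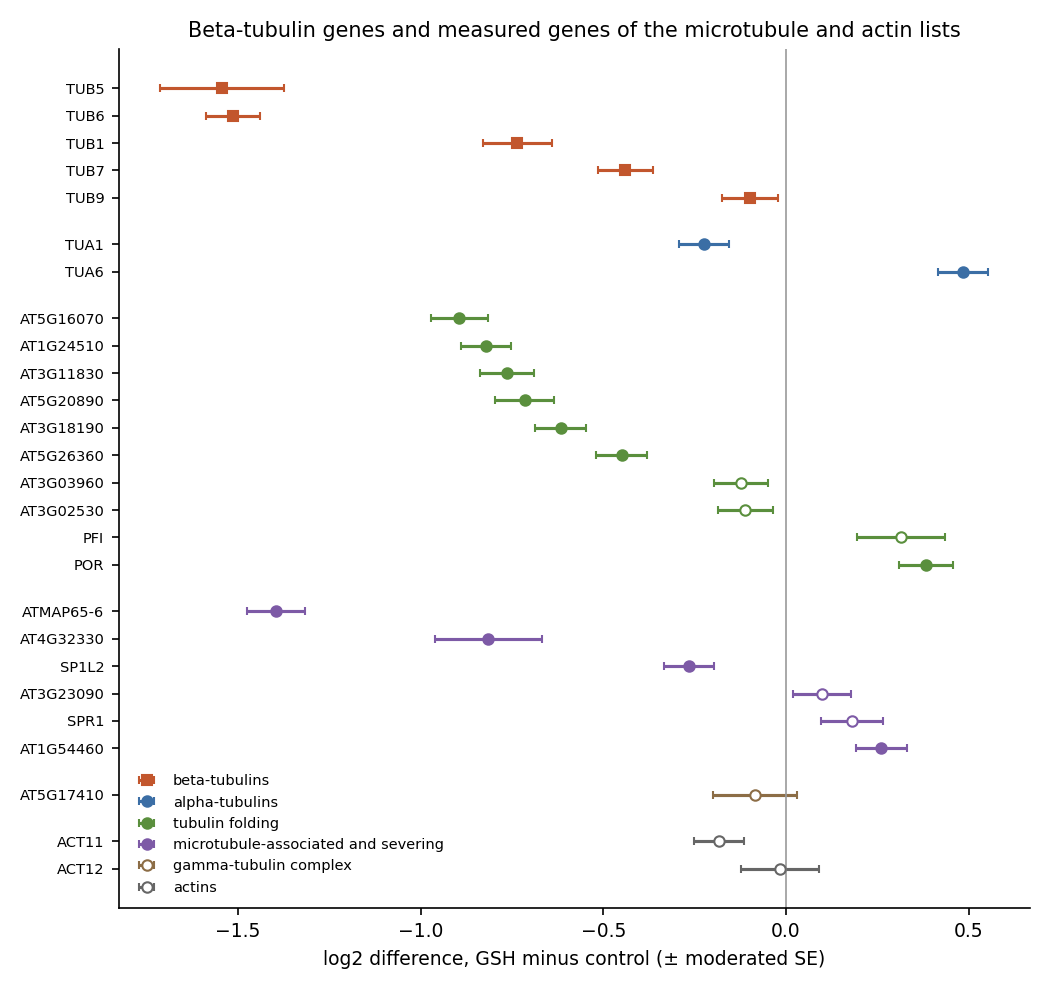
Log2 difference (GSH minus control, with moderated standard errors) of the 5 beta-tubulin genes (squares, shown without a test) and of the measured genes of the microtubule and actin lists (circles, filled where the limma adjusted p was under 0.05). MAP65-6 (-1.40) lies near TUB5 and TUB6, while TUA6 (0.49) and POR (0.38) lie on the other side of 0.

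Actin forms the other filament system of the plant cell, and neither of its 2 measured genes of 8 passed. ACT11 gave 7.29 and 7.31 on the control arrays and 7.12 and 7.11 on the GSH arrays, a difference of -0.18 ± 0.07 (limma adjusted p = 0.0822), and ACT12 stood at -0.02 ± 0.11, with a sign that turned with centred arrays. The array also carries 6 control probe sets for Arabidopsis actin, which were left out of the tests. Their differences ran from 0.04 to 0.18 with a median of 0.15. COB, which guides the direction of cellulose in growing cells, was the 1 measured gene of 12 on the cellulose list and stood at -0.13 ± 0.07 (limma adjusted p = 0.237).

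The genes nearest to the beta-tubulin genes in the genome were compared next, with gene order from RefSeq assembly TAIR10.1. Of the 10 nearest measured genes, 1 on each side of each gene, 2 fell, 1 rose and 7 did not pass, a share near the 33.8% called among all probe sets. TUB6 has measured genes directly on both sides, AT5G12240 (0.14 ± 0.08) and AT5G12260 (0.10 ± 0.09), and neither passed. Beside TUB5, AT1G19980 stood at -0.20 ± 0.07 and AT1G20030 at 0.19 ± 0.08, with 2 and 3 genes between. Beside TUB1, AT1G75770 stood at -0.12 and sks18 at 0.00. ENOC, directly next to TUB7, rose by 0.44 ± 0.08 (limma adjusted p = 0.00506), the direction opposite to that of TUB7. AT2G29510, on the other side of TUB7 with 6 genes between, fell by 1.22 ± 0.08 (limma adjusted p = 0.000109). Near TUB9, AT4G20930 fell by 0.42 ± 0.07 (limma adjusted p = 0.00408) with 3 genes between, and AT4G20880, directly next to TUB9, stood at -0.21.

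The genes most like each beta-tubulin gene over the 4 arrays were found by the Euclidean distance between log2 values, each taken relative to its own mean, among 13512 other probe sets with 1 gene. For TUB6 these were PTI1-4 (distance 0.034) and AT4G23820 (0.063). For TUB5 they were EXPA4 (0.181), an expansin gene, and FHL (0.254), both at larger distances than those for the other 4 genes. The nearest to TUB1 were AT5G39785 (0.031) and AT5G44580 (0.051), to TUB7 AT5G64270 (0.015) and AT3G01520 (0.018), and to TUB9 UGT73C1 (0.012) and AT1G33970 (0.013). Within a distance of 0.1 log2 units lay 0 probe sets for TUB5, 8 for TUB6, 13 for TUB1, 191 for TUB7 and 773 for TUB9. The measure follows the size of the difference and also the deviations between replicates, which for EXPA4 were wide on the GSH arrays (4.39 and 3.99). Likeness beyond that cannot be read from 4 arrays.

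Tubulin genes are close copies of one another. All 5 probe sets carry the plain suffix of Affymetrix identifiers that marks no planned sharing between genes, but whether their probes also bound transcripts of other tubulin genes was not tested. The direction of all 5 differences was the same with arrays centred on their medians, with a second quantile normalization and without each array in turn. For TUB9 the difference then ran from -0.15 to -0.05.

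**Figure D4:**
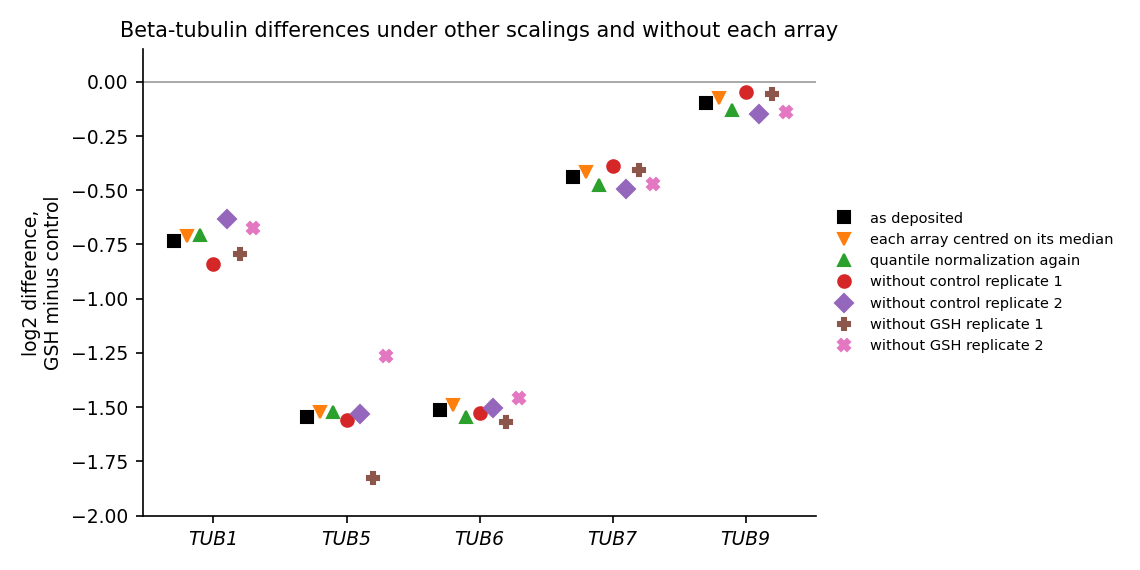
Log2 difference (GSH minus control) of each beta-tubulin gene as deposited (black squares), under 2 other scalings and without each of the 4 arrays. TUB5 spreads from -1.83 to -1.26, TUB6 from -1.57 to -1.46, and all points lie below 0. Leaving out an array could not move a point across 0, because the groups of each gene did not overlap.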

How the data were processed

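The authors deposited a log2 value for every probe set on every array. Affymetrix Expression Console and RMA made them, per the submitters' processing notes (no versions named). RMA subtracts background, quantile-normalizes the arrays and summarizes the probes of a set by median polish. Quantile normalization hides a change shared by most transcripts, and very dim or bright differences are compressed. The small number of arrays limits precision. RNA was extracted with Trizol, and 6 µg was labelled, per the labels' protocols. Groups and replicate numbers came from the sample titles. Free-text descriptions of embryos contradict the source and tissue labels and were not used.

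Gene names came from the platform annotation, updated by gene identifier to RefSeq (TAIR10.1). Of 22746 probe sets tested, 13513 had 1 gene, 503 several and 8730 none in the tables, and 13436 matched RefSeq. The 64 control probe sets were left out.

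All probe sets were fitted together with limma 3.58.1 in R 4.3.3 (lmFit, eBayes, treatment as the factor, 2 residual degrees of freedom, prior 4.55), two-sided, with Benjamini-Hochberg adjustment and a threshold of 0.05. The script was tested on simulated data. The 5 genes and the 13 lists (125 entries, 123 genes, 31 measured) were chosen with earlier results of these data known. The naming rule took the 5 genes, up to 6 members per list by unadjusted p, the 2 nearest genes by distance and the nearest measured genome neighbours. Genes named outside it are marked as such. Alternatives were other scalings, leaving out each array, a replicate block, a filter on dim probe sets, an intensity trend and no moderation.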

Additional observations from a re-analysis of the deposited data

How the results depend on the processing

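Results rest on 2 arrays per group. The direction of all 5 beta-tubulin differences was the same under the other scalings. Leaving out an array could not turn it, because the groups of each gene did not overlap. The replicate block leaves each difference unchanged, so it could not turn the direction either. Leaving out each array in turn, the difference ran from -0.84 to -0.63 for TUB1, from -1.83 to -1.26 for TUB5, from -1.57 to -1.46 for TUB6, from -0.49 to -0.39 for TUB7 and from -0.15 to -0.05 for TUB9. With an ordinary linear model per probe set (no moderation), 1425 of the probe sets passed against 7680 and 3 microtubule-list genes in place of 13 (TUA6, AT1G24510 and MAP65-6), because each probe set then rests on 2 residual degrees of freedom. In the other alternatives 10 to 13 microtubule-list genes passed. Signs turned for 3 genes that were not called: AT5G17410 (-0.223 to 0.0537 without 1 array), ACT12 (0.00743 with centred arrays, -0.139 to 0.107 without 1 array) and sks18 (0.0217 with centred arrays, -0.0547 to 0.051 without 1 array). Replicate numbers are shared between the groups, but no label says that they pair the arrays. With the replicate number as a block, 6235 probe sets and 10 microtubule-list genes passed. The deviations of same-numbered arrays were only weakly related across probe sets, with a negative sign (r = -0.10). With the numbers crossed, a fit added after seeing the data, 6898 probe sets and 12 microtubule-list genes passed. No detection calls were used, so dim values, among them those of TUB1 and TUB5 after GSH, have no known distance from background.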

Other observations

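Other families linked to microtubules were looked up by symbol after the values were seen, and they carry no test. IQD proteins bind calmodulin, and several are known to sit on microtubules. Of 11 IQD genes measured, 7 were lower without overlap between the groups, 1 was higher and 3 overlapped, where 34.0% of all probe sets were lower without overlap, and their median difference was -0.15. IQD24 went from 7.06 and 6.88 on the control arrays to 5.68 and 5.84 on the GSH arrays (-1.21 ± 0.09, SE, n = 2 per group), and IQD22 went from 5.51 and 5.18 to 4.40 and 4.22 (-1.04 ± 0.12). IQD28 (-0.72 ± 0.08) and IQD23 (-0.69 ± 0.07) were lower as well, and the GSH values of IQD22 and IQD28 lay near the limit of the lowest 25% of probe sets. KINESIN-13A, a motor-family gene outside the lists, went from 8.10 and 8.23 to 8.76 and 8.57 (0.50 ± 0.09), the direction opposite to that of the beta-tubulin genes, and the groups of KINESIN-12B, the other of 2 genes with a kinesin symbol, overlapped (0.07 ± 0.08). Of the relatives of SPR1, SP1L3 (-0.04), SP1L4 (0.02) and SP1L5 (-0.08) overlapped between the groups.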
